A study of Arabidopsis thaliana with 8 samples.

Results

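Abscisic acid (ABA) is the hormone that plants make when water runs short. It closes stomata and switches on genes for protective proteins, and its signal passes from soluble receptors through protein phosphatases and kinases to transcription factors. ABH1, the gene mutated in abh1, encodes the larger protein of the cap-binding complex of the nucleus, which holds the cap at the start of new messenger RNAs and takes part in their splicing and in microRNA maturation, and the mutant is known for an exaggerated response to ABA. The data described here are the ABA response of abh1 leaves, chosen as the 2 arrays from abh1 plants sprayed with ABA against the 2 arrays from abh1 plants sprayed with water (mock), which are 4 of the 8 arrays of the series. All plants were Arabidopsis thaliana of 4 weeks. ABA was given at 50 µM and tissue was taken after 4 h. The other 4 arrays are the same comparison in Columbia wild-type plants.

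The RNA of 3 biological replicates of green tissue was pooled for each array, so the spread between plants is not seen and every p-value rests on the spread among arrays, which may be technical. Arrays number 1 and number 2 of the groups deviated from their group means together, with correlations of 0.394 to 0.715 over the 6 pairs of groups, so every ABA effect below is the mean of the effects within number 1 and number 2. Values are the authors' MAS5 signal, a linear brightness per probe set. Differences are in log2(signal + 10) with their standard error (SE, 2 arrays a group), and folds are on that scale, which understates the change of dim genes. The fit used all 8 arrays, left 3 residual degrees of freedom and covered 13648 of 22810 probe sets. Of these, 7328 genes could be named, with 1 probe set each. Precision is limited by the small number of arrays.

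Leaf markers were bright on the 4 abh1 arrays. Rubisco activase (RCA) had signals of 18280 and 20232 on the mock arrays and 15459 and 18820 on the ABA arrays, and the light-harvesting genes LHCB4.1 and LHCB4.2 lay between 17387 and 25288, while LHCB4.3 lay between 2639 and 3997. Of the root-hair expansins, EXPA7 lay between 57.8 and 115 and EXPA18 between 108.5 and 209.8, and the seed oleosin OLEO3 between 81.7 and 161. The trichome regulator TRY had 421 and 416 on the mock arrays and 269 and 388 on the ABA arrays. No probe set was paired with ABH1 itself in the annotation used, so the genotype label was not checked on that gene. The median signal was 160.4 and 216 on the mock arrays and 152 and 179.5 on the ABA arrays. The 3' to 5' signal ratio of actin, a sign of RNA integrity, was 4.41 on abh1 mock replicate 1 and 2.27 to 2.82 on the other 3 abh1 arrays. The same ratio of GAPDH was 1.39 on that array and 1.23 to 1.32 on the other 3. For ubiquitin it was 2.21 on that array and 2.01 to 2.94 on the other 3. Leaf tissue mixes cell types, and in such bulk samples fewer cells of a type and less RNA per cell cannot be told apart.

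After ABA, a dehydrin, a cold-regulated protein and an expansin were among the few genes that rose in abh1 leaves past the test. In the fit of all 8 arrays 17 probe sets passed an adjusted p of 0.05 (limma with Benjamini-Hochberg adjustment), which is 0.125% of those tested. Of the 17, 15 were higher after ABA (0.11%) and 2 were lower (0.0147%). The named genes among them were ZW9, the dehydrin LTI30, the cold-regulated COR15A, the expansin EXPA16 and AT5G22460, and all 5 rose. In the RefSeq gene table ZW9 is AT1G58270 on chromosome 1, LTI30 and EXPA16 are AT3G50970 and AT3G55500 on chromosome 3, COR15A is AT2G42540 on chromosome 2, and AT5G22460 is on chromosome 5. The size of the called effects ran from 1.88 to 3.72 on the log2 scale.

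ZW9 had the smallest p of all probe sets. Its signal was 409.7 and 261 on the mock arrays and 4345 and 4284 on the ABA arrays, so the lowest ABA value was far above the highest mock value. The difference was 3.68 ± 0.24 (SE), or 12.8-fold, with an adjusted p of 0.00495 (limma). AT5G22460, given no role in the annotation, went from 74.4 and 177 to 618 and 913, a difference of 2.60 ± 0.27 with an adjusted p of 0.0439 (limma).

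Of the 12 called probe sets without a single gene name, the 10 that rose did so by 1.88 to 3.02. The first of them by p, 267008_at, went from 215 and 123 to 1027 and 693, and the next, 255795_at, from 2723 and 1897 to 8653 and 10708. Another of the 10 had only 35.0 to 65.3 on the mock arrays of both genotypes. It passed the filter on the mean signal, of at least 115.5, only through its ABA arrays. The 2 that fell are also unnamed. Probe set 267034_at fell from 1218 and 894 to 263 and 269, a difference of -1.93 ± 0.25. Probe set 254475_at fell from 221 and 416 to 15.5 and 12.1, near the 10th percentile of those arrays (7.69 and 12.1), and its difference of -3.72 ± 0.47 therefore depends on the offset. On the ABA arrays of both genotypes it had 12.1 to 97.3, so it passed the filter only through its mock arrays. For both probe sets that fell, each abh1 ABA array lay below each abh1 mock array.

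The count of 17 depended strongly on arrays outside the comparison. The fit of all arrays has a single estimate of the spread for both genotypes. When the 4 abh1 arrays alone were fitted, with 1 residual degree of freedom, 920 probe sets passed (6.74%), 405 of them higher after ABA (2.97%) and 515 lower (3.77%), and the 17 were all among them. The fit draws the spread of each probe set toward that of others of like brightness. A small p there need not mean that a gene's own replicates moved alike. The chloroplast gene cemA, for example, passed with effects of 3.09 in replicate 1 and 0.36 in replicate 2. Dropping wild-type ABA replicate 1 from the fit gave 939 calls, and dropping wild-type ABA replicate 2 gave 938. Without the replicate number in the fit it was 0, with 576 at an unadjusted p under 0.05. Leaving out abh1 mock replicate 1 or abh1 ABA replicate 2 also gave 0, whereas leaving out abh1 ABA replicate 1 gave 3, abh1 mock replicate 2 gave 4, and either wild-type mock array gave 1. Results that passed only with the 4 abh1 arrays alone are named as such below, and "rose" and "fell" are kept for the 17.

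**Figure D1:**
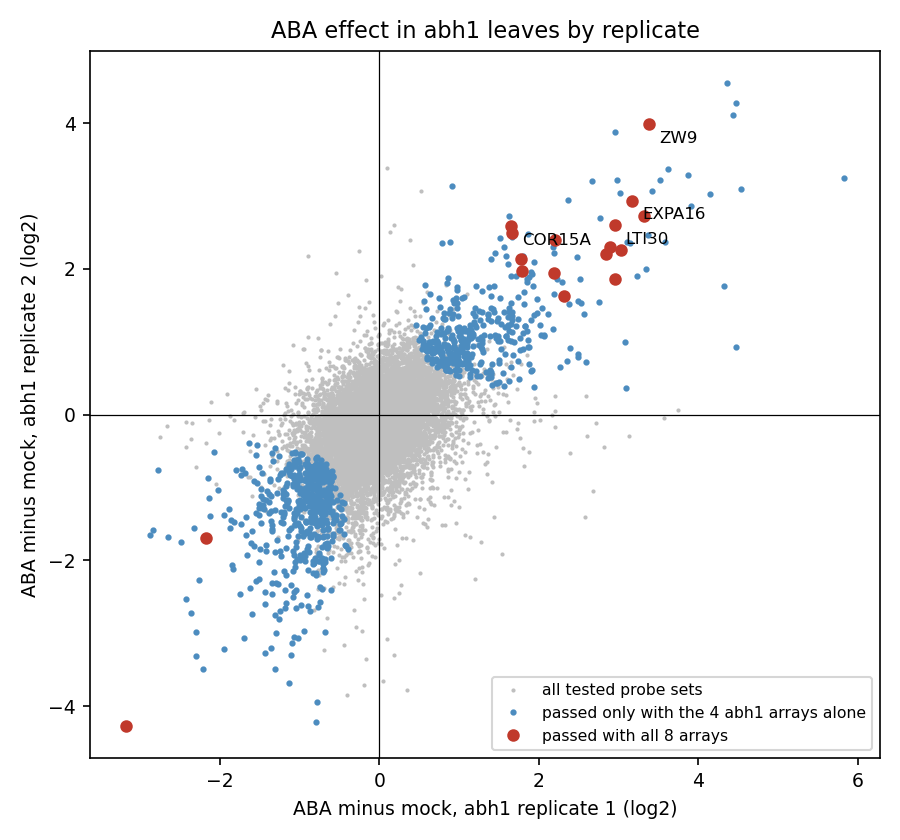
ABA minus mock in log2(signal + 10) for each tested probe set, in abh1 replicate 1 (x axis) and replicate 2 (y axis). Red points passed with all 8 arrays, blue points passed only with the 4 abh1 arrays alone, and the red points lie far from 0 in both replicates.

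The effects in the first and the second pair of abh1 arrays had a Pearson correlation of 0.537 across the 13648 probe sets, which share the arrays and are not independent. The same value for the wild-type pairs was 0.253. At an unadjusted p under 0.05 there were 1668 probe sets (12.2%), 807 higher (5.91%) and 861 lower (6.31%), where 682 would be 5% of those tested. Both ABA arrays lay above both mock arrays for 2152 probe sets (15.8%) and below for 2983 (21.9%). At least a 2-fold change in both replicates was found for 174 probe sets upward (1.27%) and 153 downward (1.12%). The median effect over all probe sets was -0.05, with -0.04 in replicate 1 and -0.06 in replicate 2. Higher and lower effects were not spread evenly over signal levels. Among the 4549 brightest probe sets, 257 passed upward and 188 downward with the 4 abh1 arrays alone, against 30 upward and 108 downward among the 4550 dimmest.

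Beyond the called probe sets, the named genes with the smallest p and with both ABA arrays on one side of both mock arrays were taken, 14 in each direction including the 5 that rose. The other 9 upward had differences of 1.81 to 3.50, and the 14 downward had -0.96 to -2.54. None of these 23 passed with all arrays. All of them passed with the 4 abh1 arrays alone, which adds no support because they were picked for their effect on those same arrays. AT1G24600 and AT1G49450 got through the signal filter only by their ABA arrays. Among the lower genes, AT5G55580, AT2G39260, AT3G14120, AT2G22200 and AT1G32530 got through it only by their mock arrays. Most of the 23 carry only a locus code in the annotation, and no role is given for those.

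Among the higher ones, AT1G61890 had 831 and 476.5 on the mock arrays and 2379 and 2600.0 on the ABA arrays, a difference of 1.97 ± 0.31. AT1G24600 was nearly dark without ABA, at 11.0 and 8.44, and had 249 and 180.1 with it, so its difference of 3.50 ± 0.46 depends on the offset. Among the lower ones, AT5G63180 had 2537 and 2254, then 444 and 664, a difference of -2.12 ± 0.43. AT1G73600 had 2252 and 7059 on the mock arrays and 748 and 2025 on the ABA arrays, so the ABA arrays were below both mock arrays although replicate 2 was the brighter in both groups. AT5G55660 had the largest downward difference of the 14, from 117 and 321 to 14.7 and 40.2.

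Dehydrins and other late embryogenesis abundant (LEA) proteins are hydrophilic proteins that protect membranes and enzymes as cells dry or freeze. Of 14 genes of this list on the array, 9 passed the filter on the mean signal of at least 115.5. All 9 were higher after ABA, with 2 of them called, against 0.11% of all probe sets called higher. With the 4 abh1 arrays alone 6 passed, against 2.97% of all probe sets. The median difference was 0.98, against -0.05 over all probe sets. LEA4-5 and AT3G02480 passed the filter only through their ABA arrays, so the count and the median describe the list and support nothing further.

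LTI30, a dehydrin of cold and ABA responses, had 731 and 763 on the mock arrays and 5703 and 4678 on the ABA arrays. Its difference was 2.77 ± 0.29, or 6.84-fold, at an adjusted p of 0.0439 (limma). COR15A, whose product protects chloroplast membranes in the cold, went from 5096 and 2809 to 16055 and 16897, by 2.12 ± 0.25 at the same adjusted p (limma). The brightness of COR15A after ABA was nearly even between replicates, and its mock arrays were apart by more.

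The close relative COR15B had 2590 and 1209 on the mock arrays and 4422 and 2778 on the ABA arrays, a difference of 0.98 ± 0.22. The acidic dehydrin COR47 had 4478 and 4168, then 8793 and 7396, a difference of 0.90 ± 0.16. Neither passed with all arrays (adjusted p = 0.166 and 0.109, limma), and both passed with the 4 abh1 arrays alone (adjusted p = 0.0143 and 0.0163). For both genes each ABA array was above each mock array.

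LEA4-5, a LEA protein of the fourth group, was dim without ABA, at 76.6 and 17.9, and reached 661 and 399.9 with it. AT3G02480, placed in the list by its locus code and unnamed in the annotation, went from 51.2 and 9.55 to 1245 and 449. The differences were 3.41 ± 0.69 and 4.46 ± 1.01, and their mock values near the offset make these sizes uncertain. The errors include the spread of the wild-type arrays, and wild-type ABA gave 1902 and 201 for LEA4-5 and 7927 and 498 for AT3G02480. With the 4 abh1 arrays alone the adjusted p was 0.000422 for LEA4-5 and 5.2e-05 for AT3G02480 (limma), against 0.126 and 0.162 with all arrays.

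The remaining measured members differed little. AT2G44060 had a difference of 0.30, AT1G54410 of 0.12 and AT2G46140 of 0.04, and that of AT2G46140 was -0.15 without abh1 mock replicate 2. Of the 5 members below the filter, LEA18 had 0.912 and 1.34 on the mock arrays and 126 and 42.5 on the ABA arrays. AtLEA4-1 went from 25.3 and 38.4 to 58.9 and 51.5. The other 3, LEA, M10 and M17, stayed between 0.528 and 27.1 on all 4 arrays.

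**Figure D2:**
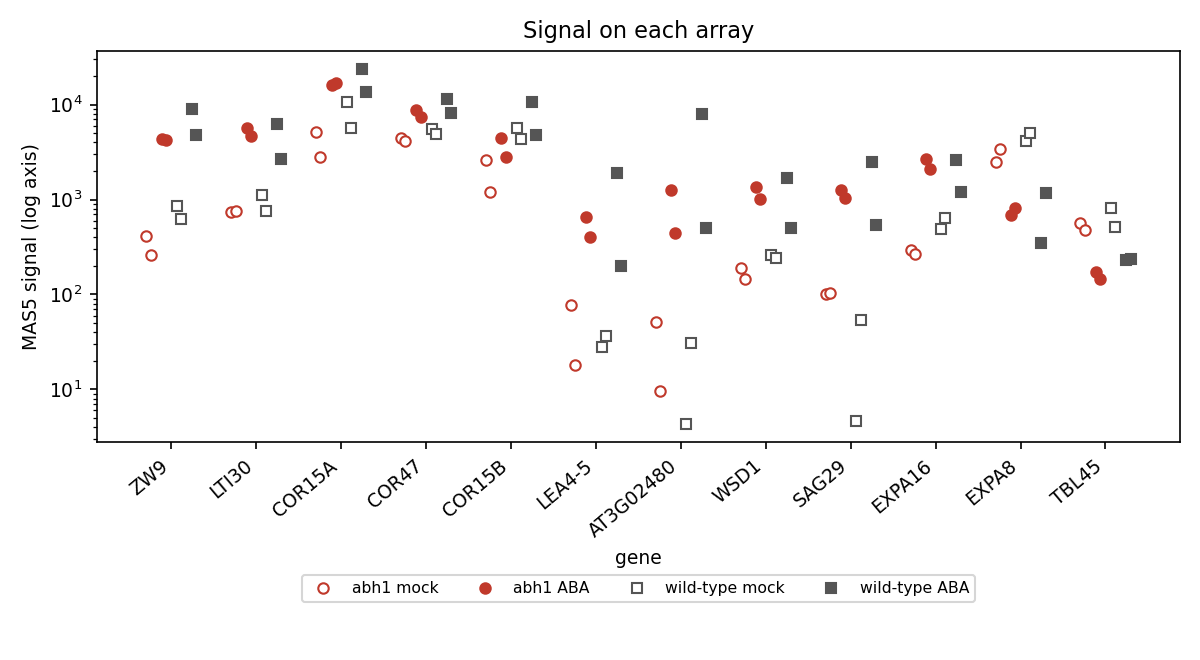
MAS5 signal on a log axis for 12 genes, with circles for abh1 and squares for wild type, open for mock and filled for ABA, 1 symbol per array. In abh1 the ABA arrays of the 10 genes on the left lie above both mock arrays, and those of EXPA8 and TBL45 lie below, while the wild-type ABA arrays of LEA4-5, AT3G02480 and SAG29 lie far apart.

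Genes named for drought, dehydration or senescence did not move as a block. Of 13 on the array 11 were measured, 7 higher and 4 lower, and none was called with all arrays. With the 4 abh1 arrays alone 3 passed, all higher (27.3%, against 2.97% of all probe sets), and 2 of these, SAG29 and DI21, passed the filter only through their ABA arrays. SAG29, a sugar transporter of the SWEET family that marks senescence, went from a mean of 101 ± 1.88 (SD, n = 2) on the mock arrays to 1250 and 1042, a difference of 3.37 ± 0.80. It had an adjusted p of 0.184 with all arrays and 4.4e-05 with the 4 abh1 arrays alone (limma). DI21 went from 55.1 and 62.6 to 253 and 160.2, and RD2 from 2277 and 2296 to 3774 and 3620. Their adjusted p with the 4 abh1 arrays alone was 0.0335 and 0.0456 (limma), and RD2 is bright on all 4 arrays. The senescence regulator SAG101 had a difference of -0.71 and did not pass either fit.

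Among 11 sugar transporters measured, SAG29, SWEET4 and SWEET17 were higher and TMT1 lower with the 4 abh1 arrays alone. In that fit 2.97% of all probe sets passed upward and 3.77% downward, and SAG29 passed the filter only through its ABA arrays. SWEET4 had 346 and 267 on the mock arrays and 1078 and 637 on the ABA arrays. TMT1, which loads sugars into the vacuole, had 830.1 and 1293, then 530.5 and 703, a difference of -0.75 ± 0.27. The median over the 11 was 0.06, close to that of all probe sets.

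WSD1, which makes wax esters for the cuticle, went from 191.5 and 146 to 1364 and 1001. Its difference of 2.73 ± 0.38, or 6.65-fold, had an adjusted p of 0.0587 with all arrays and 8.6e-05 with the 4 abh1 arrays alone (limma). ALDH7B4, a turgor-responsive aldehyde dehydrogenase that clears reactive aldehydes, went from 1695 and 2271 to 5948 and 4253, by 1.35 ± 0.28. ALDH2C4, an aldehyde dehydrogenase that makes ferulic and sinapic acids, went the other way, from 2457 and 2893 to 1197 and 1427. Both passed with the 4 abh1 arrays alone (adjusted p = 0.00724 and 0.00898, limma), and the other 6 aldehyde dehydrogenases did not. In that fit 6.74% of all probe sets passed.

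Cell-wall genes differed in both directions. Expansins loosen the bonds between wall polymers, and of 19 on the array 10 were measured, 5 higher and 5 lower. EXPA16 went from 292 and 268 to 2697 and 2116, and rose by 3.05 ± 0.33, or 8.29-fold, at an adjusted p of 0.0439 (limma). EXPA8 had 2475 and 3432 on the mock arrays and 680.3 and 815 on the ABA arrays, a difference of -1.95 ± 0.35. Its adjusted p was 0.107 with all arrays and 0.000317 with the 4 abh1 arrays alone (limma). The 2 genes belong to the same subfamily and moved apart in both replicates.

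The expansin-like genes EXLA1 and EXLB1 were on the side of EXPA16. EXLA1 had 284 and 90.9, then 895 and 660.0, and EXLB1 had 478.5 and 497, then 1493 and 1109. Both passed with the 4 abh1 arrays alone (adjusted p = 0.00176 and 0.00396, limma) and had 0.0884 and 0.0871 with all arrays. EXLA2, below the filter, had 49.4 and 21.1, then 183 and 133. The root-hair expansin EXPA18 had a difference of -0.53 and EXPA15 of -0.23, and neither passed.

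Other wall genes also split. Both xyloglucan enzymes measured, which cut and rejoin xyloglucan chains, were higher with the 4 abh1 arrays alone, where 2.97% of all probe sets were. XTH32 went from 1219 and 1780 to 3662 and 4110.0, and EXGT-A3 from 2869 and 2480 to 4916 and 4456. CSLA01, a cellulose synthase-like gene, had 126 and 327, then 219 and 1011, so the replicates overlapped although each pair moved up. TBL45, of a family tied to wall acetylation, went from 571 and 482.5 to 171 and 147, a difference of -1.67 ± 0.23 with an adjusted p of 0.0608 (limma). Its relative TBL38 went up from 422 and 311 to 1170.0 and 676, and the median over the 12 measured members of that family was -0.01.

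Protein turnover genes included PUB19, a U-box ubiquitin ligase of the drought response, which went from 373 and 239 to 1381 and 1383. Its difference was 2.17 ± 0.39, with an adjusted p of 0.107 for all arrays and 0.000422 for the 4 abh1 arrays alone (limma). LUL1, a RING-type ubiquitin ligase, had 314 and 293, then 625 and 682, and PUB26 and PUB25 had differences of 0.68 and 0.64. The 14 measured ubiquitin ligases were 7 higher and 7 lower, with PUB49 at -1.26. XERICO, a RING protein known to raise ABA levels, had a difference of 0.44 and did not pass. UBC32, a ubiquitin-conjugating enzyme, passed with the 4 abh1 arrays alone at a difference of 0.93.

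Autophagy carries cell contents to the vacuole, and ATG8 proteins coat its membranes. Of 11 genes measured 9 were higher, where 44.9% of all probe sets were. Their median was 0.29, and none was called with all arrays. ATG8H had 331 and 169 on the mock arrays and 682 and 320.3 on the ABA arrays. ATG8E had 1773 and 1163, then 3104 and 1968. Both passed with the 4 abh1 arrays alone (adjusted p = 0.0287 and 0.0288, limma), although in ATG8H the ABA array of replicate 2 lay below the mock array of replicate 1. In that fit 2.97% of all probe sets passed upward.

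Over the 6 lists of transcription factor families 28 genes were measured, and 2 passed with the 4 abh1 arrays alone (7.14%), close to the 6.74% of all probe sets. HAT2, a homeodomain-leucine zipper factor, had 567 and 507, then 1226 and 978, a difference of 1.02 ± 0.20. BZIP53, a basic leucine zipper factor, had 1892 and 1395, then 2817 and 3035. These are the 2, and the other 11 measured bZIP and homeobox genes did not pass. PHV, a leaf-polarity factor kept in the list of microRNA targets, had 209 and 421, then 117 and 163, and also passed with the 4 abh1 arrays alone (adjusted p = 0.0484, limma). The 4 measured genes of cap binding and microRNA processing had differences from -0.54 to -0.03, with none passing, and SE, which acts in both splicing and microRNA processing, was the lowest.

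RALFL32, a secreted signalling peptide, went from 658 and 204 to 1806 and 987, a difference of 1.83 ± 0.29 with an adjusted p of 0.0832 (limma). All 6 measured RALF peptide genes were higher. Over all probe sets 44.9% were higher, and 7524 of 13648 were lower. All 7 tetraspanins, membrane proteins of cell junctions and vesicles, were higher with a median of 0.42, and none passed either fit. Of 8 IQD proteins, which bind calmodulin, 7 were lower with a median of -0.48. IQD31 and iqd21 passed with the 4 abh1 arrays alone, where 3.77% of all probe sets passed downward. Of 14 serine carboxypeptidase-like genes 11 were lower. UGT72E1, a glucosyltransferase of lignin precursors, had 578 and 832, then 156 and 292, and its family of 27 measured members was centred at -0.07.

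**Figure D3:**
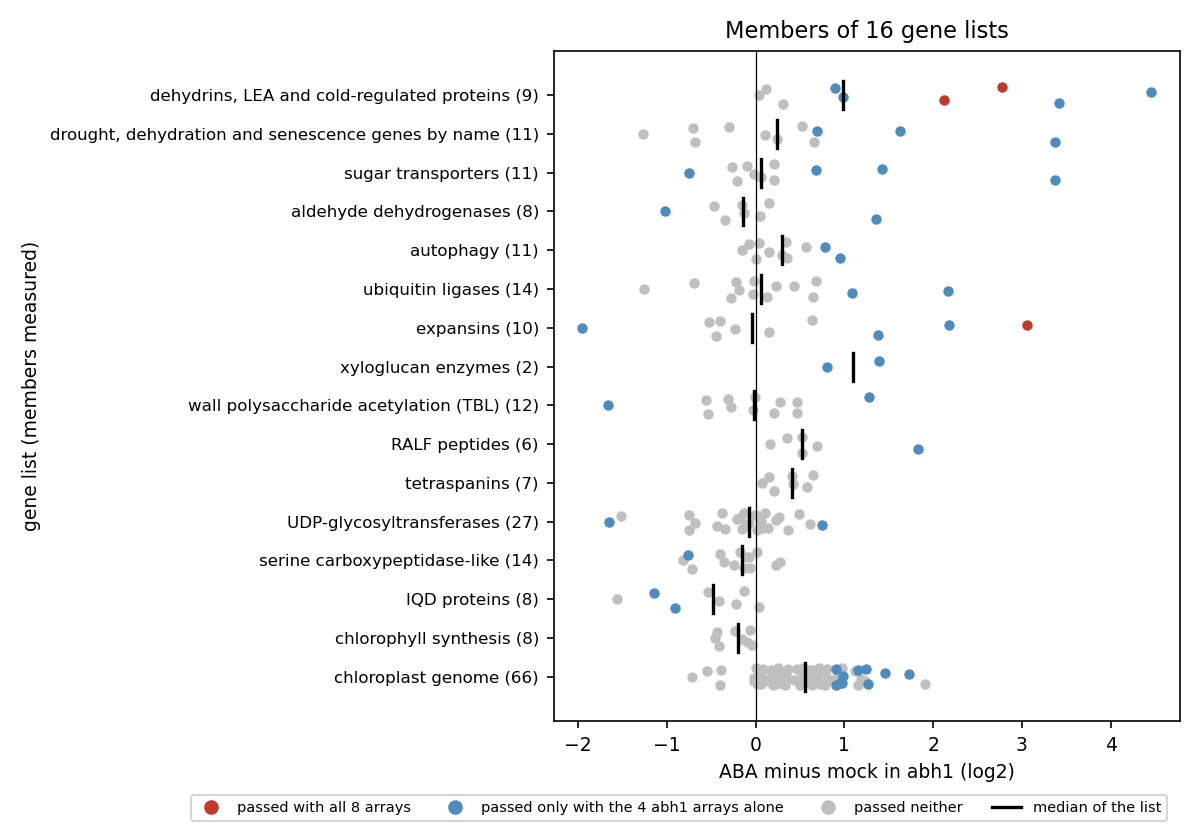
ABA minus mock in abh1, in log2(signal + 10), for the measured members of 16 gene lists, with a black bar at each median. The 3 red points passed with all 8 arrays, and the chloroplast genome and the dehydrin list lie mostly to the right of 0.

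Of 6 measured splicing and RNA-binding genes 2 were higher and 4 lower. With the 4 abh1 arrays alone 1 passed, beside 6.74% of all probe sets. That gene, ATU2AF65A, the large subunit of a factor that recognises the end of introns, had 351 and 731 on the mock arrays and 166 and 177 on the ABA arrays, with an adjusted p of 0.239 for all arrays and 0.00963 for the 4 abh1 arrays alone (limma). The 12 measured MADS-box and flowering-time genes were 6 higher and 6 lower, and none passed either fit. The flowering regulator LD had 153 and 453, then 99.5 and 123, a difference of -1.19, and AGL42 had a difference of 0.65. Photosynthesis genes encoded in the nucleus differed little. The 3 LHCB4 genes lay between -0.08 and 0.08, and the 3 carbon fixation genes between -0.30 and -0.15. All 8 chlorophyll synthesis genes were lower by small amounts, where 7524 of all 13648 probe sets were lower. Their median was -0.20, with none at an unadjusted p under 0.05.

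Genes encoded in the chloroplast behaved otherwise on the abh1 arrays. Of 66 measured 60 were higher after ABA (90.9%, against 44.9% of all probe sets), with a median difference of 0.55. With the 4 abh1 arrays alone 10 passed, all higher, which is 15.2% against 2.97% of all probe sets, and none was called with all arrays. The median was 0.93 in replicate 1 and 0.25 in replicate 2. The summed signal of the 66 genes was 129374 on abh1 mock replicate 1 and 229695 on abh1 ABA replicate 1, beside 265883 and 255482 on the wild-type mock and ABA arrays of the same number. In replicate 2 it was 381914 on the mock and 426543 on the ABA array of abh1, beside 424547 and 413649 in the wild type. The wild-type median difference of these genes was -0.11. The array of abh1 mock replicate 1 was thus the lowest of the 8, and its actin 3' to 5' ratio of 4.41 was the highest of the abh1 arrays. Its ubiquitin ratio of 2.21 lay within the range of the other abh1 arrays. Wild-type mock replicate 1 had an actin ratio of 6.99 and a sum of 265883. Whether these ratios bear on the sum was not tested. The median of 0.25 in replicate 2 does not use abh1 mock replicate 1. By complex, the replicate 2 medians ran from -0.08 for the ribosomal proteins to 0.45 for cytochrome b6f.

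In replicate 1 of abh1 the summed signal was higher on ABA than on mock in every complex. The gap was smallest for the RNA polymerase. The summed signal of the 5 photosystem I genes was 10760 on mock and 18866 on ABA in replicate 1, and 45051 on both arrays of replicate 2. For the 9 genes of the NDH complex, which returns electrons to the photosynthetic chain, it was 16560 and 29274, then 41735 and 50702. All 9 were higher, with a median of 0.71. For the 6 ATP synthase genes it was 13647 and 22894, then 50765 and 52078. For the 5 cytochrome b6f genes it was 10361 and 22076, then 32437 and 39505. For the 15 photosystem II genes it was 44201 and 74237, then 96763 and 111005. For the 15 ribosomal protein genes it was 17441 and 34333, then 59131 and 61291, and their median difference was 1.27 in replicate 1 and -0.08 in replicate 2. The 3 RNA polymerase genes hardly differed, with 6968 and 7789, then 8569 and 8512, and a median of 0.05. Of their sum on abh1 mock replicate 1, rpoA alone gave 6252.

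Single chloroplast genes differed in the order of their arrays. psbK, a small photosystem II subunit, had 410.4 and 1953 on the mock arrays and 999 and 3170 on the ABA arrays, so the groups overlap while each pair moved up. Its difference was 0.98 ± 0.20 with an adjusted p of 0.138 (limma). ndhH had 52.4 and 541, then 290.4 and 855, and petA, which encodes cytochrome f, had 2049 and 8974, then 4772 and 13571. psbJ, another photosystem II subunit, had 5577 and 7067, then 9856 and 8803, so its ABA array of replicate 1 was the brightest of the 4. It was 1 of the 4 genes of the 66 (6.06%) whose ABA arrays both lay above both mock arrays, a share under the 15.8% of all probe sets.

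**Figure D4:**
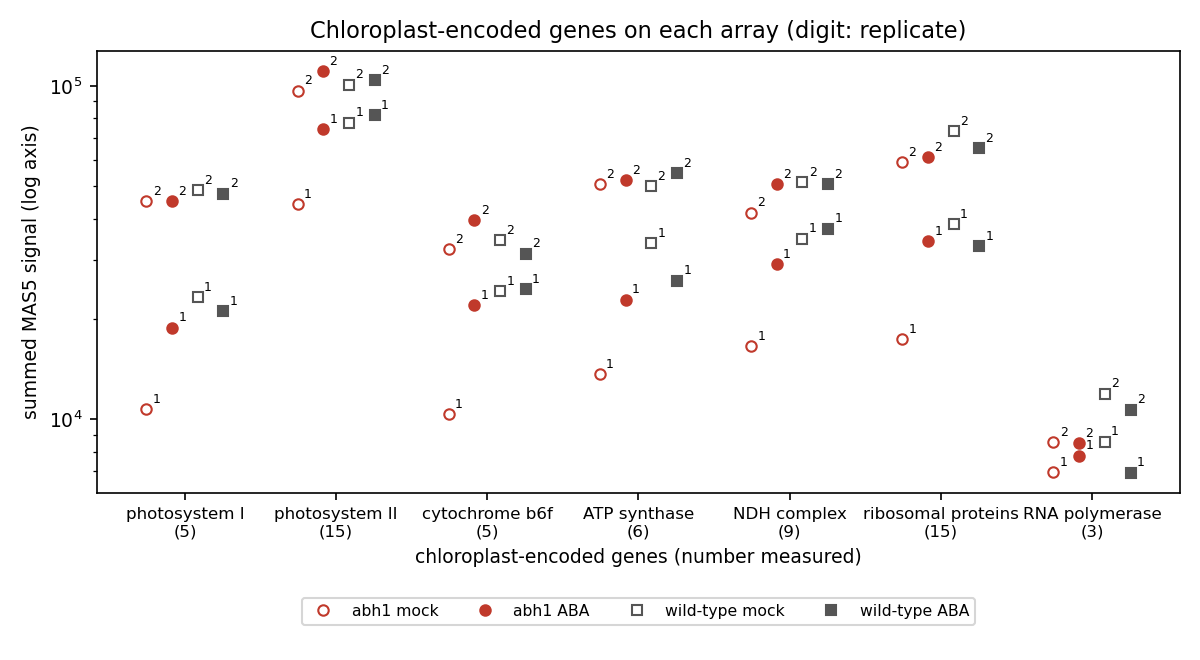
Summed MAS5 signal (log axis) of the measured chloroplast-encoded genes by complex, with circles for abh1, squares for wild type, open for mock, filled for ABA and a digit for the replicate number. Replicate 1 of abh1 mock is the lowest array in every complex but the RNA polymerase, where wild-type ABA replicate 1 is slightly lower.

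Whether abh1 leaves responded differently from the wild type was tested as the difference of the ABA effects. No probe set passed an adjusted p of 0.05 (0%, limma), and 249 had an unadjusted p under 0.05 (1.82%). All 17 called probe sets moved the same way in both wild-type replicates, and 15 of the 17 had a larger effect in abh1. For 6 of them the difference had an unadjusted p under 0.05. Since the 17 were picked for their effect in abh1, the share with a larger effect there is a description only.

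Among the 5 named genes that rose, the gap was widest for EXPA16. Its wild-type signal was 487.5 and 632 on the mock arrays and 2615 and 1188 on the ABA arrays, an effect of 1.65 ± 0.33, and the difference from abh1 was 1.40 ± 0.47. COR15A had 10602 and 5648, then 23965 and 13408 in the wild type, and its difference was 0.91 ± 0.35. In both genes the mock signals of abh1 were below those of the wild type, and the ABA signals of the 2 genotypes overlapped. The difference was 0.52 ± 0.34 for ZW9 and 0.62 ± 0.41 for LTI30, with adjusted p of 1 for each of these 4 (limma). COR47 had effects of 0.90 in abh1 and 0.89 in the wild type, a difference of 0.01 ± 0.23.

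SAG29 and AT3G02480 had larger effects in the wild type, at 5.26 and 6.38, and the differences of -1.89 ± 1.13 and -1.93 ± 1.43 had unadjusted p of 0.132 and 0.215 (limma). LUL1 was near 0 in the wild type, with 535 and 526 on the mock arrays and 465 and 499 on the ABA arrays. Its difference was 1.22 ± 0.28, at an unadjusted p of 0.00263 and an adjusted p of 1 (limma). AT3G53980 had the smallest p for the difference. It was 796 and 1140.0 on mock and 749 and 865.5 on ABA in abh1, and 139.9 and 169 on mock and 499 and 458 on ABA in the wild type, a difference of -1.82 ± 0.32 at an adjusted p of 1 (limma). Its abh1 groups overlap and its wild-type groups do not.

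**Figure D5:**
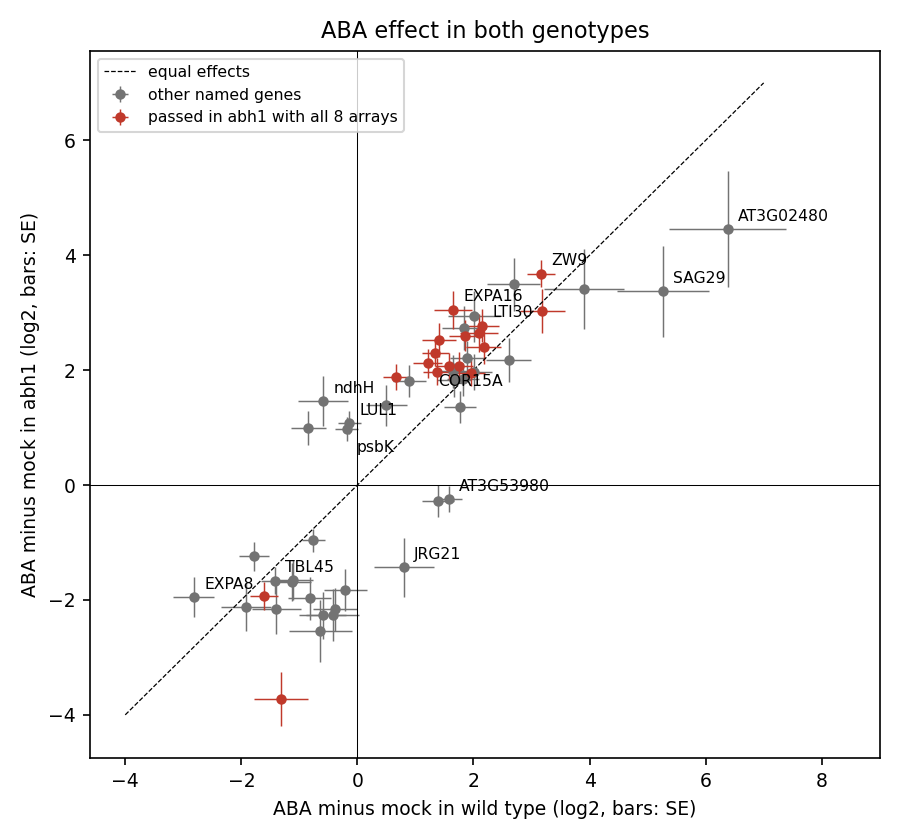
ABA effect in log2(signal + 10) in the wild type (x axis) and in abh1 (y axis), with SE bars, for the called probe sets (red), the other genes named by rule and 8 list members (grey). All red points lie in the quadrants of equal direction, and AT3G53980, JRG21, LUL1, psbK and ndhH lie away from the dashed line of equal effects.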

How the data were processed

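Per the labels, total RNA from 500 mg of green tissue per array was labelled with biotin from 10 µg and hybridised to Affymetrix arrays of 22810 probe sets, 64 of them controls. The deposited values are the authors' MAS5 signal, a linear intensity (MAS5 per the submitters' processing notes), and their 2% trimmed means of 500.04 to 500.05 show that the arrays were already scaled, so no further normalization was applied. Probe sets with a mean signal under the 40th percentile (115.5) were left out, 10 was added and log2 taken. limma 3.58.1 in R 4.3.3 fitted 4 group means and the replicate number to all 8 arrays, with eBayes and an intensity trend. Tests were two-sided, with Benjamini-Hochberg adjustment over 13648 probe sets at 0.05.

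The labels state no pairing. The numbers were taken to pair the arrays because all 6 correlations of deviations from the group means were over 0.1. With 2 arrays a group the smallest p of an exact permutation test is 0.33, so none is used.

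The platform annotation pairs 13513 probe sets with 1 gene, 503 with several, and does not list 8794, which are unnamed here. Locus codes came from a RefSeq table of assembly TAIR10.1. A gene with several probe sets is given by the brightest. Named genes were every called gene, the 14 with the smallest p in each direction whose ABA arrays lay on one side of both mock arrays, the 4 best by p in each list, the 5 with the smallest p for the difference, and all dehydrin, LEA and cold-regulated genes. At most 2 unnamed probe sets were named in each direction. SAG101, PUB49, XERICO, EXPA15, EXPA18, EXLA2, BZIP61, AGL24, VHA-A1 and 8 of the chloroplast genes given for a difference between genotypes lie outside this rule and were taken from the lists after their values were seen. The comparison and the gene lists were chosen with earlier results of these data known, and lists were extended after the annotation was read. Alternatives were another offset, filter, centring or trend, quantile normalization, array weights, no replicate block, the abh1 arrays alone, and leaving out each array. Promoter motifs and sequences were not analysed here.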

Additional observations from a re-analysis of the deposited data

Results flagged for a closer look

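The called genes, the 14 with the smallest p in each direction, the 5 with the smallest p for the difference, the dehydrin list and the list members with an unadjusted p under 0.05 for the ABA effect in abh1 or for the difference between genotypes, were searched for effects of opposite sign. In 22 of them both abh1 replicates went one way and both wild-type replicates the other. Genes picked for a difference between genotypes were among those searched, which favours opposite signs. The share over all probe sets was not counted, so the 22 are a description only. None of these differences passed the adjusted threshold (adjusted p = 1 for each, limma), and the lists were chosen with earlier results known. The effect was lower in abh1 for the auxin-conjugating GH3.3 (-3.33), the factor WRKY6 (-1.20), AT3G53980 (-1.82), AT1G57630 (-1.67), the jasmonate-regulated JRG21 (-2.23), the jasmonate methyltransferase JMT (-1.04) and the methionine sulfoxide reductase MSRB9 (-1.26), in log2. It was higher in abh1 for AT1G60590 (1.83), the ubiquitin ligase LUL1 (1.22), the factors BZIP61 (1.34) and AGL24 (1.13) and the proton pump subunit VHA-A1 (0.669). GH3.3 had 120.2 and 123 on the abh1 mock arrays and 43.8 and 31.6 on the abh1 ABA arrays, and 24.7 and 73.5, then 59.3 and 539.6 in the wild type. GH3.3 passed the signal filter of 115.5 only through wild-type ABA replicate 2, and its mean on the 4 mock arrays was 85.35. Its difference was -1.996 when wild-type ABA replicate 2 was dropped and -4.67 when replicate 1 of that group was.

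The other 10 are chloroplast-encoded genes, all higher in abh1 by psbK 1.17, ndhH 2.05, ndhE 1.15, ndhJ 0.802, rps2 1.29, rps4 1.14, atpH 1.49, accD 1.19, rpoC1 0.820 and ycf4 1.48 in log2. For ycf4 and rps4 the unadjusted p was 0.0676 and 0.0807, above 0.05. On these genes abh1 mock replicate 1 was the lowest array of the 8, and without it the 10 differences lay between 0.37 and 1.17. The genes were picked for opposite signs in both replicates, so differences above 0 without this array largely follow from the choice.

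In JRG21, JMT and MSRB9 the mock array of abh1 replicate 1 was the highest of the 8. JRG21 had 927 there and 237 on abh1 mock replicate 2, against 164 and 172 on the abh1 ABA arrays. AT1G57630 had 894 and 179.9 on the abh1 mock arrays and 625 and 173 on the ABA arrays, so its replicates were further apart than its treatments.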

How the results depend on the processing

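The count of called probe sets in abh1 ranged from 0 to 939 when 1 array was left out. It was 17 with an offset of 1 and 19 with 50. It was 0 with no replicate block, 920 with the abh1 arrays alone, 1 with no filter on low signals, 27 above the 60th percentile, 99 after median centring of each array, 80 after quantile normalization, 1 with eBayes without the trend and 467 with array quality weights. Median centring moved the median effect of all probe sets from -0.05 to 0.11. The higher and lower calls were 84 and 15 with it, 72 and 8 with quantile normalization, and 405 and 515 with the abh1 arrays alone. The 17 kept their direction under every setting in which they were tested, and 15 of them were tested above the 60th percentile. They were picked for large effects on these same arrays and had the same sign in both replicates. A change of direction was therefore hardly possible, and the kept directions add no support. Of the 5 named genes ZW9 alone was called without the filter and without the trend. The difference between genotypes gave 0 calls in all 17 alternatives run. AT2G46140 was the only named gene whose effect turned, with -0.15 to 0.24 when 1 array was left out. The cause of these shifts was not tested. With 2 pooled arrays a group, effects between dim probe sets near the offset are poorly determined.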
